A study of Mus musculus with 10 samples.

Results

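The subject is 10 enzymes that break down the amino acids lysine and tryptophan in the liver and lead on to NAD synthesis: Aass, Aadat, Gcdh, Tdo2, Afmid, Kmo, Kynu, Haao, Acmsd and Qprt. They were taken by gene name from a table of 19414 genes, and each name matched 1 row. Liver RNA came from 10 female HET3 mice, a genetically heterogeneous stock, so that no mouse is a genetic copy of another. Of these, 5 ate a standard diet (SD) and 5 a Longevity diet (LD), called methionine-supplemented in the study's title, for 5 months. The age is given as 25 months, without saying clearly if feeding began or ended then. All mice shared the stock, the sex and the tissue, no transgene or drug is named, and what the diets otherwise held is not analysed here. Each mouse is called by its title, such as SD_403. Expression is in CPM, the reads of a gene per 1e+06 reads of all listed genes in that library.

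Lysine is broken down in mitochondria by the saccharopine route, which Aass opens and which ends, through 2-oxoadipate and glutaryl-CoA, in acetyl-CoA. Tryptophan enters the kynurenine route through Tdo2, a heme enzyme abundant in hepatocytes and long known to respond to glucocorticoids and to its own substrate. Near the end of that route an unstable intermediate is either removed by Acmsd, for oxidation, or closes on its own to quinolinate, which Qprt turns into the precursor of NAD; the liver is a main site of this synthesis. Aadat and Gcdh serve both amino acids.

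All 10 genes averaged at least 1 CPM over the 10 mice, the condition for testing, as did 13157 genes in all. The lowest value of any of the 10 was 2.25 CPM and the highest 554 CPM. Estimated depth, in units of 1e+06 reads, was 36.0 to 45.7 on the standard diet and lower on the Longevity diet, at 24.7 to 39.1 (two-sided exact permutation p = 0.0159); at the lowest depth 3 reads equal 0.121 CPM, well under every value of these genes. One library stood apart: LD_405 lay at 96.2 on the leading principal component (31.2% of the variance), where the other mice lay between -43.9 and 38.2. Its tested genes were at a median of -0.37 on the log2 scale against the standard diet mean, and the other 9 mice were at -0.15 to 0.11. Results of the 10 genes are therefore also given without it. Hepatocyte markers identified the tissue: 7 of the 8 listed were in the table and summed to between 98731 and 148286 CPM on the standard diet and between 145500 and 199214 CPM on the Longevity diet. Alb made up most of these sums, at 79126 and 124794 CPM by diet mean. Of the 7, 0 passed limma at an adjusted p under 0.05, and their median log2 difference was 0.15. Fgb (-0.55), Serpina1c (-0.31) and Ttr (-0.0073) were lower on the Longevity diet, and Alb, Apoa1, Cyp2e1 and Hnf4a were higher. Kidney tubule markers, for another tissue rich in these enzymes, summed to at most 0.679 CPM, with 1 of 5 in the table. In bulk RNA, fewer cells of a type and less RNA per cell cannot be told apart.

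Of the 10 genes, 1 fell and 0 rose on the Longevity diet by limma at an adjusted p under 0.05. The gene that fell was Aass. Among all tested genes 1.23% fell and 0.661% rose, 1.89% in all. The log2 differences of all 10 were below 0, with a median of -0.66, beside a median of -0.11 over all tested genes, of which 60.4% were below 0. Unadjusted p was under 0.05 for 7 of the 10, all lower on the Longevity diet, beside 11.6% of all tested genes (5.92% were higher at that p). The 5 values of each diet did not overlap for 4 of them, Aass, Afmid, Kynu and Acmsd, all lower on the Longevity diet, beside 3.49% of all tested genes (2.01% were higher without overlap). Scaling by median-of-ratios moved the median of all genes up by 0.110, and it gave Qprt the opposite sign (0.051); the other 9 genes stayed below 0.

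**Figure D1:**
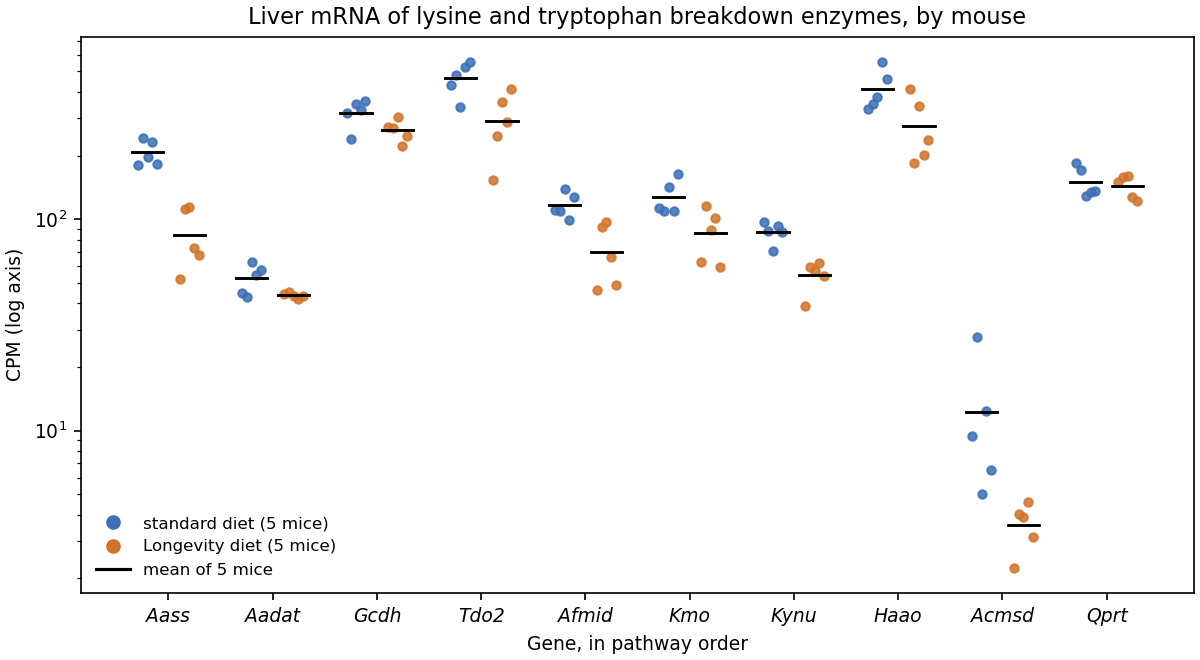
CPM on a log axis for each of the 10 genes in each mouse, standard diet in blue and Longevity diet in orange, with a black bar at the mean of 5 mice. The 2 diets stand clear of each other for Aass, Afmid, Kynu and Acmsd, and overlap for the other 6 genes, most fully for Qprt.

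Aass encodes the bifunctional enzyme that joins lysine to 2-oxoglutarate and then splits saccharopine. It is ENSMUSG00000029695.14, on chromosome 6 from 23072172 to 23132985, minus strand (mm39). On the standard diet it stood at 180 CPM in SD_403, 243 in SD_501, 196 in SD_502, 233 in SD_646 and 183 in SD_500. Longevity diet values were 52.1 CPM in LD_405, 112 in LD_513, 114 in LD_406, 73.5 in LD_515 and 68.0 in LD_442. Every Longevity diet mouse was below every standard diet mouse, and LD_405 was lowest. The level was 2.56-fold lower by the fit, a log2 change of -1.35 with an SE of 0.23 and a 95% CI of -1.84 to -0.87 (adjusted p = 0.0114). Without LD_405 it was -1.20 (adjusted p = 0.00931). The call was kept in 21 of 22 alternative settings. It was lost when mice were also grouped by the leading digit of their number, which the labels do not explain (log2 change -1.22, adjusted p = 0.0683). The values by digit add no test, since diets that do not overlap keep their order within any group of mice. Among numbers beginning with 5 the standard diet mice had 183 to 243 CPM and the Longevity diet mice 73.5 and 112 CPM. Among those beginning with 4 the only standard diet mouse had 180 CPM and the Longevity diet mice 52.1 to 114 CPM. SD_646 had no Longevity diet mouse with its digit.

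The stretch around the start of Aass is shown because it is the one gene of the set that fell. It covers 250 bases before and 50 after the start (RefSeq, GRCm38.p6, chr6:23132937-23133236, minus strand, printed 5′ to 3′), with capitals marking the motifs found.
Aass: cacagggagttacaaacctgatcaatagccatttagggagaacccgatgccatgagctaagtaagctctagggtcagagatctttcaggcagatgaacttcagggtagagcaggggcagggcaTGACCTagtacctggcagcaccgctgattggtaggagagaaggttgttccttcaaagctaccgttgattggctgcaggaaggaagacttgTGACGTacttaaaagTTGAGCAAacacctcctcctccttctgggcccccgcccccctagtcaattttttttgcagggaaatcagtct
From left to right the capitals are the nuclear receptor core AGGTCA read on the opposite strand (position -127 from the start), the cyclic AMP core TGACGT (-37) and the C/EBP pattern TTGCNNAA on the opposite strand (-22). These letters occur in 16.3%, 7.51% and 10.8% of all 32851 promoter windows of this length, so that each is common. A match describes the sequence and is not evidence of binding.

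Aadat and Gcdh, the other lysine genes of the set, did not pass the test. Aadat (chromosome 8 from 60958966 to 60998711, plus strand), a mitochondrial aminotransferase that makes 2-oxoadipate from aminoadipate and kynurenic acid from kynurenine, stood at 44.8, 43.1, 62.6, 54.7 and 57.6 CPM in SD_403, SD_501, SD_502, SD_646 and SD_500. On the Longevity diet it stood at 44.5, 45.5, 43.1, 41.9 and 43.2 CPM in LD_405, LD_513, LD_406, LD_515 and LD_442. The Longevity diet mice were thus close together (coefficient of variation 3.13%, against 15.9% on the standard diet), and the values overlapped through SD_403 and SD_501. The log2 difference of -0.25 did not pass the test (95% CI -0.60 to 0.09, adjusted p = 0.435). Gcdh (chromosome 8 from 85613022 to 85620550, minus strand), the flavin-dependent dehydrogenase of glutaryl-CoA, stood at 318, 239, 349, 329 and 363 CPM in the standard diet mice in the same order. In the Longevity diet mice it stood at 274, 270, 304, 221 and 246 CPM. Apart from SD_501 all standard diet values were above all Longevity diet values, and the log2 difference was -0.27 (95% CI -0.63 to 0.08, adjusted p = 0.412).

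The log2 ratio of Aass to Gcdh within each liver, which a common scaling of a library leaves almost the same, compares the opening and a late step of lysine breakdown. It was -0.82, 0.02, -0.83, -0.50 and -0.99 in SD_403, SD_501, SD_502, SD_646 and SD_500, and -2.39, -1.26, -1.41, -1.59 and -1.86 in LD_405, LD_513, LD_406, LD_515 and LD_442. The diets did not overlap. The mean ratio was 1.08 lower on the log2 scale on the Longevity diet, that is 2.11-fold lower (two-sided exact permutation p = 0.00794, the smallest that 252 assignments of mice allow; adjusted p = 0.0119 over the 3 ratios computed). Aass thus differed between the diets by more than Gcdh did, by this test. The ratio was chosen with earlier results of these data known, so its p-value is no independent support for the difference of Aass.

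Tdo2 (ENSMUSG00000028011.17, chromosome 3 from 81864397 to 81883509, minus strand), the dioxygenase that opens the ring of tryptophan, stood at 430 CPM in SD_403, 480 in SD_501, 340 in SD_502, 528 in SD_646 and 554 in SD_500. Longevity diet values were 154 CPM in LD_405, 248 in LD_513, 359 in LD_406, 290 in LD_515 and 413 in LD_442. LD_406 and LD_442 lay above SD_502, and the other 3 Longevity diet mice lay below all standard diet mice. The log2 difference was -0.73 (SE 0.25, 95% CI -1.27 to -0.19), with an unadjusted p of 0.0121 and an adjusted p of 0.155, and -0.52 without LD_405 (adjusted p = 0.176). The window around its start (RefSeq, GRCm38.p6, chr3:81975679-81975978, minus strand) is shown as that of the entry enzyme, with matched motifs in capitals.
Tdo2: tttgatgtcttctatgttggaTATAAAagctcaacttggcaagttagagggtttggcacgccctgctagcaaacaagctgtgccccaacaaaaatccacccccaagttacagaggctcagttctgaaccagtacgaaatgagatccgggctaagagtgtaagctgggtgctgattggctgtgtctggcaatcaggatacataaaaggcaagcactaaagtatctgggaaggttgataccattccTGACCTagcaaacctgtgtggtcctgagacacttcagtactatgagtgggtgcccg
The capitals are TATAAA at position -229 (found in 13.6% of all windows), far from the start, and AGGTCA on the opposite strand at position -6. The glucocorticoid receptor patterns searched, AGAACA and the palindrome built from it, were not in this window, which says nothing of sites outside it.

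Afmid (chromosome 11 from 117716750 to 117730734, plus strand), the formamidase that releases kynurenine, stood at 110, 110, 139, 99.4 and 128 CPM in SD_403, SD_501, SD_502, SD_646 and SD_500. It stood at 46.3, 92.2, 96.7, 66.3 and 49.0 CPM in LD_405, LD_513, LD_406, LD_515 and LD_442. The diets did not overlap, though LD_406 lay just under SD_646, and the log2 difference of -0.80 (95% CI -1.29 to -0.31, adjusted p = 0.0966) did not pass over all genes. Its span lies almost wholly within that of Gm20708 on the same strand (8.25 to 9.12 CPM by diet mean), so that reads could be split between them. Kmo (chromosome 1 from 175447947 to 175489682, plus strand), the outer-membrane hydroxylase that makes 3-hydroxykynurenine, stood at 113, 110, 142, 109 and 164 CPM in the standard diet mice in the same order and at 63.1, 116, 88.7, 102 and 59.3 CPM in the Longevity diet mice. LD_513 lay above 3 of the standard diet mice. Its log2 difference was -0.60 (95% CI -1.08 to -0.13, adjusted p = 0.174). Kmo overlaps Fh1, on the opposite strand, over 5255 bases, and Fh1 was at 131 and 141 CPM on the standard and Longevity diets; the strand setting of the counting is not given in the sources used here, so some reads could be exchanged.

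Kynu (chromosome 2 from 43445341 to 43572734, plus strand), the hydrolase that makes 3-hydroxyanthranilate, stood at 96.6, 88.3, 70.7, 93.0 and 87.0 CPM in SD_403, SD_501, SD_502, SD_646 and SD_500, and at 39.0, 59.2, 56.9, 62.2 and 53.9 CPM in LD_405, LD_513, LD_406, LD_515 and LD_442. No values overlapped, and SD_502 was the standard diet mouse nearest to the other diet. The log2 difference was -0.69 (SE 0.18, 95% CI -1.07 to -0.32, adjusted p = 0.0658), which became -0.58 (adjusted p = 0.0524) without LD_405 and passed without SD_502 (-0.77, adjusted p = 0.0477). Leaving out SD_502, the lowest standard diet mouse, widens the difference by itself. Kynu passed in 3 of 22 alternative settings, and its adjusted p was 0.223 with the leading digit of the mouse number as covariate. Haao (chromosome 17 from 84138585 to 84155392, minus strand), the dioxygenase that makes the unstable intermediate of the branch, stood at 331, 350, 379, 553 and 460 CPM on the standard diet and at 411, 185, 342, 201 and 238 CPM on the Longevity diet, in the same orders. LD_405, which was lowest of all 10 mice for 5 of the genes, was here the highest of its diet. The log2 difference of Haao was accordingly larger without it, at -0.79 (adjusted p = 0.0669), than with it, at -0.63 (95% CI -1.15 to -0.12, adjusted p = 0.190). Kmo and Kynu are known from macrophages as well as hepatocytes. The sum of 12 Kupffer cell and macrophage markers was 514 to 868 CPM on the standard diet and 272 to 899 CPM on the Longevity diet, with 0 of 12 past the threshold, and its part in these differences was not tested.

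**Figure D2:**
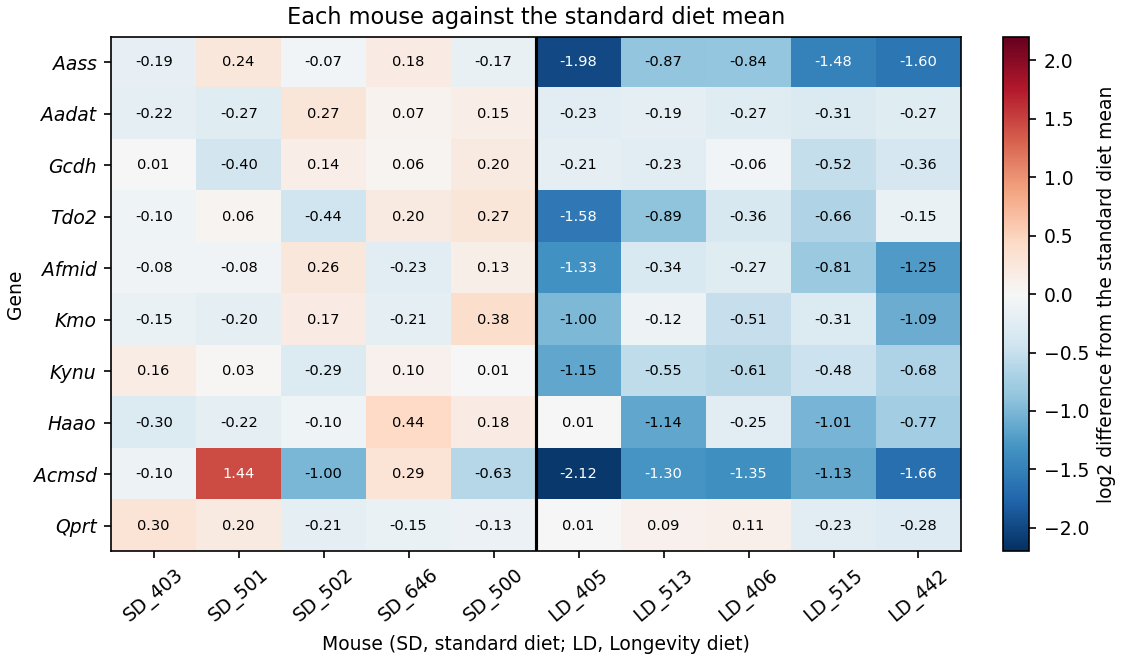
Log2 difference of each mouse (columns) from the standard diet mean of each gene (rows), on log2(CPM + 0.1), blue for lower and red for higher. On the Longevity diet 8 of the 10 genes are below 0 in all 5 mice, all but Haao and Qprt; LD_405 is near 0 for Haao, and Qprt stays pale in all 10 mice.

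Acmsd, the decarboxylase that takes the intermediate away from NAD synthesis (ENSMUSG00000026348.8, chromosome 1 from 127657150 to 127695715, plus strand), was the least abundant of the 10. It stood at 9.41 CPM in SD_403, 27.6 in SD_501, 5.01 in SD_502, 12.4 in SD_646 and 6.53 in SD_500. On the Longevity diet it stood at 2.25 CPM in LD_405, 4.05 in LD_513, 3.92 in LD_406, 4.58 in LD_515 and 3.14 in LD_442. The standard diet mice were widely spread (coefficient of variation 74.4%), yet the lowest of them, SD_502, was above the highest Longevity diet mouse. The log2 difference was -1.51 (SE 0.40, 95% CI -2.37 to -0.65) and did not pass (adjusted p = 0.0765). It was -1.15 (adjusted p = 0.122) without SD_501, and -1.76 with the test passed (adjusted p = 0.0392) without SD_502. Here too, leaving out the lowest standard diet mouse widens the difference by itself. Acmsd passed in 2 of 22 alternative settings, and its adjusted p was 0.250 with the leading digit of the mouse number as covariate. Qprt, the phosphoribosyltransferase of quinolinate (ENSMUSG00000030674.6, chromosome 7 from 126706286 to 126721398, minus strand), stood at 184, 172, 129, 134 and 136 CPM in the standard diet mice in the same order, and at 150, 159, 160, 128 and 123 CPM in the Longevity diet mice. These values overlapped almost fully. Its log2 difference was -0.060 (adjusted p = 0.882), with a 95% CI of -0.42 to 0.30 that still allows a modest difference in either direction, and it turned to 0.014 without SD_403.

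The window around the start of Qprt is shown as that of the gene whose values overlapped most fully between the diets (RefSeq, GRCm38.p6, chr7:127121980-127122279, minus strand).
Qprt: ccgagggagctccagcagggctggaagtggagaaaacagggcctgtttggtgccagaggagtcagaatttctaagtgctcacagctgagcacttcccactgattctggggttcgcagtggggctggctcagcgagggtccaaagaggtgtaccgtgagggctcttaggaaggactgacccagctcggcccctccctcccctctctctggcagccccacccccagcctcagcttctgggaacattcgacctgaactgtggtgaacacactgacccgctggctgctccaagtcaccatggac
It has no capitals, since it held none of the 14 patterns searched. Its share of G and C was 60.3%, beside a median of 52.7% over all windows; the windows of Aadat (60.3%), Afmid (59.7%) and Haao (58.7%) were similar, and that of Afmid also held none of the patterns.

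The log2 ratio of Acmsd to Qprt was -4.27, -2.63, -4.66, -3.42 and -4.36 in SD_403, SD_501, SD_502, SD_646 and SD_500, and -6.00, -5.26, -5.32, -4.77 and -5.24 in LD_405, LD_513, LD_406, LD_515 and LD_442. All Longevity diet mice were below all standard diet mice, with LD_515 close under SD_502. The mean difference was -1.45, or 2.73-fold lower on the Longevity diet (two-sided exact permutation p = 0.00794, the smallest possible; adjusted p = 0.0119 over the 3 ratios). Without LD_405 it was -1.28 (exact permutation p = 0.0159). This ratio too was chosen with earlier results known. Acmsd itself did not pass by limma over all genes (adjusted p = 0.0765). The ratio of Kmo to Aadat, the enzymes that take kynurenine towards quinolinate or to kynurenic acid, was 0.99 to 1.51 on the standard diet and 0.46 to 1.35 on the Longevity diet. LD_405 (0.50) and LD_442 (0.46) were low and the other 3 Longevity diet mice lay within the standard diet range. Its mean difference of -0.35 did not pass the test (exact permutation p = 0.159).

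**Figure D3:**
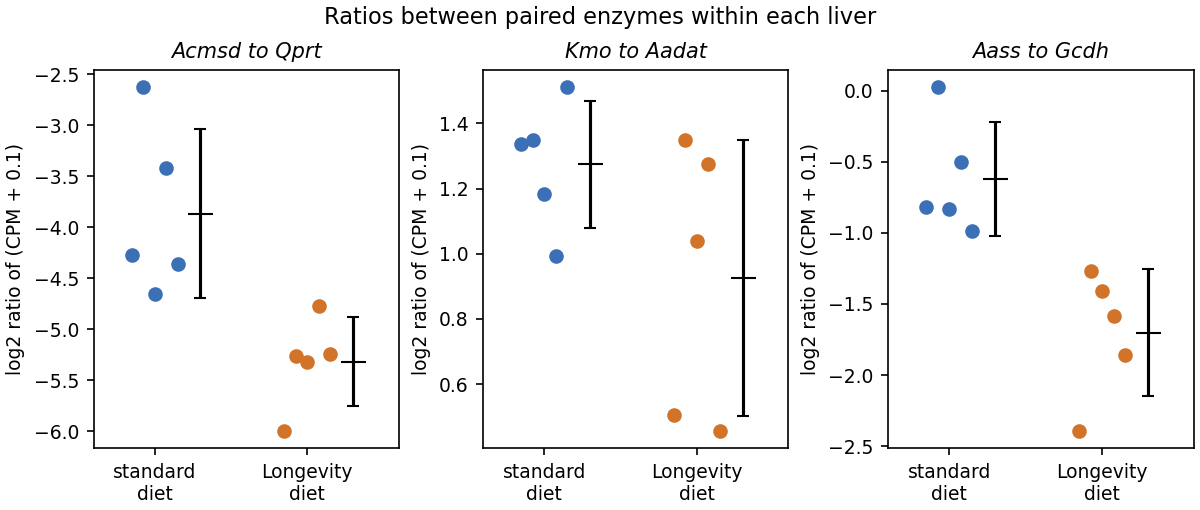
Log2 ratio of 2 enzymes within each liver for 3 pairs, 1 point per mouse, with the mean and SD of 5 mice as a black bar beside each group. The diets separate for Acmsd to Qprt and for Aass to Gcdh, and overlap for Kmo to Aadat.

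Promoter windows of 8 of the 10 genes were searched, all but Acmsd and Kynu. Besides those given above, the motifs found were AGAACA in Haao and Kmo (19.0% of all windows), AGGTCA in Haao, the HNF4 pattern CAAAGTCCA in Aadat (0.475%), the HNF1 core GTTAAT in Haao (7.10%) and TTGCNNAA in Gcdh. AGGTCA was thus in 3 of 8 windows. The patterns found in 0 of 8 windows were the direct repeat of AGGTCA with 1 base between (0.0396% of all windows), TGTTTAC for FOXA (3.65%), TTGCGCAA (0.183%), the D-box TTATGTAA (0.938%), TGACGTCA (1.79%), the amino acid response pattern TGATGNAAN (3.95%) and the glucocorticoid palindrome above (0.00913%). Both strands were searched, and some of the shorter patterns are contained in longer ones. No pattern was in more than 3 of the 8 windows.

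Per kilobase of exon, with lengths from GENCODE M21, the order of mean levels on the standard diet was Tdo2 (120 CPM per kb), Gcdh (116), Haao (88.6), Qprt (57.0), Aass (54.2), Afmid (33.1), Kmo (27.0), Aadat (24.1), Kynu (14.2) and Acmsd (4.31). The ranges of the 5 mice overlapped among Tdo2, Gcdh and Haao, between Qprt and Aass, and among Afmid, Kmo and Aadat. These ranges alone do not settle the order within each of those sets, since they do not compare the genes within each mouse. The lengths join the exons of all annotated transcripts of a gene, which can be longer than the transcript in use. On the Longevity diet Gcdh had the highest mean (95.5 CPM per kb), ahead of Tdo2 (75.4), Haao (58.8) and Qprt (54.4). Qprt and Aass, level with each other on the standard diet, did not overlap on the Longevity diet, where every mouse had more Qprt (46.4 CPM per kb or more) than any mouse had Aass. Acmsd remained lowest, at 1.27 CPM per kb.

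The spread among mice differed between the genes. On the Longevity diet the coefficient of variation was 28.5% to 35.3% for Aass, Tdo2, Afmid, Kmo and Haao and 3.13% to 16.6% for Aadat, Gcdh, Kynu and Qprt, with Acmsd between at 25.3%. LD_405 was the lowest of all mice for Aass, Tdo2, Afmid, Kynu and Acmsd, and LD_406 was the highest of its diet for Aass, Gcdh, Afmid and Qprt. The median of the 10 genes against the standard diet mean was -1.07 on the log2 scale in LD_405, -0.73 in LD_442, -0.59 in LD_515, -0.44 in LD_513 and -0.31 in LD_406. All 5 were thus below the range of the standard diet mice, -0.10 to 0.14, which lie around 0 by construction. These medians restate the differences of the 10 genes and are no further test. In LD_405 its 13157 tested genes were themselves at -0.37.

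Of the genes whose values without LD_405 are not given above, 0 passed without it. The log2 differences were then -0.26 for Aadat (adjusted p = 0.393), -0.29 for Gcdh (0.372), -0.67 for Afmid (0.106), -0.50 for Kmo (0.214), -1.36 for Acmsd (0.0939) and -0.078 for Qprt (0.842). The ratio of Aass to Gcdh was 0.91 lower on the log2 scale without LD_405 (exact permutation p = 0.00794), and that of Kmo to Aadat 0.24 lower (exact permutation p = 0.278).

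**Figure D4:**
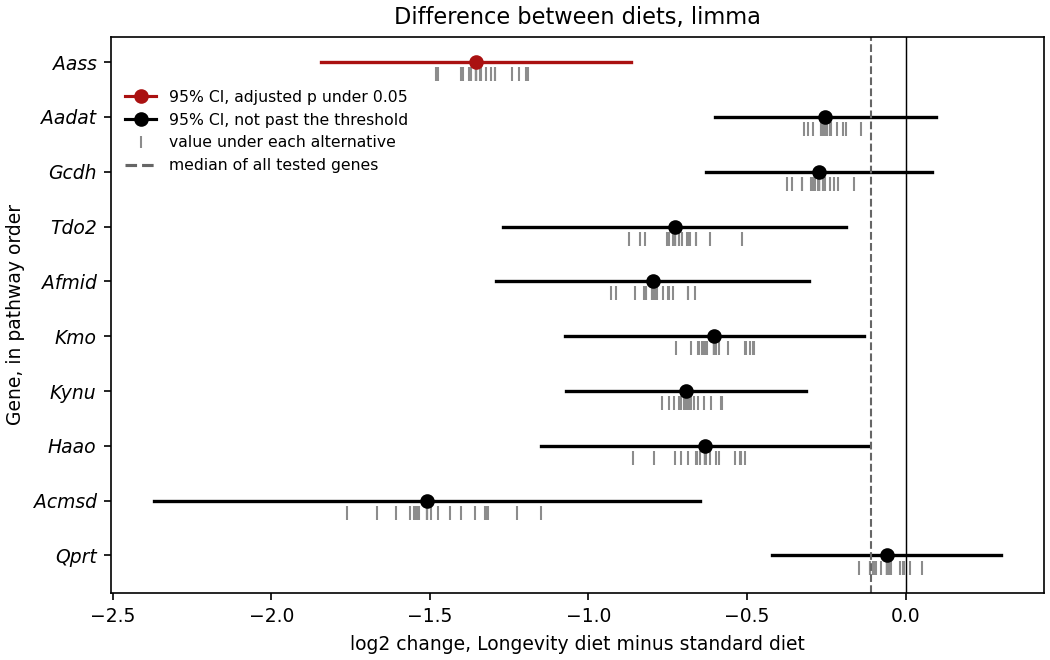
Log2 change (points) with its 95% confidence interval for each gene, Longevity diet minus standard diet, in red where the adjusted p was under 0.05; grey ticks are the values under the 22 alternative settings and the dashed line is the median of all tested genes (-0.11). Aass alone is red, and the intervals of Aadat, Gcdh and Qprt include 0.

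Of 19 other genes of lysine breakdown listed and tested with limma, 0 rose and 0 fell, and their median log2 difference was 0.16. Unadjusted p was under 0.05 for 2 of them, Dbt (lower) and Slc25a29 (higher), beside 11.6% (lower) and 5.92% (higher) of all tested genes. The list also holds mitochondrial enzymes of wider use, such as Etfa, Hadh and Ogdh, and it was not tested against Aass. The dehydrogenase of the step after Aass, Aldh7a1, was at 238 ± 18.1 and 215 ± 24.6 CPM on the standard and Longevity diets (mean ± SD, n = 5 each, adjusted p = 0.643). Dhtkd1, which handles 2-oxoadipate, was at 84.8 ± 36.7 and 59.3 ± 25.3 CPM (log2 difference -0.55, 95% CI -1.30 to 0.20, adjusted p = 0.434). The smallest p of the list belonged to Dbt, a subunit of the branched-chain ketoacid dehydrogenase, at 78.4 ± 7.00 and 44.7 ± 14.7 CPM. Dbt had 66.6 to 84.2 CPM on the standard diet and 19.9 to 57.0 CPM on the Longevity diet, with no overlap (log2 difference -0.89, adjusted p = 0.101), and passed without LD_405 (adjusted p = 0.0408). That enzyme acts on leucine, isoleucine and valine rather than on lysine.

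Of 15 other tested genes of tryptophan use and transport, 0 rose and 0 fell, and the median log2 difference was -0.21. Unadjusted p was under 0.05 for 7 of them, in both directions. Ddc, Il4i1, Slc7a8, Slc16a10 and Ido2 were lower on the Longevity diet, and Kyat3 and Slc3a2 were higher. The shares of all tested genes were 11.6% (lower) and 5.92% (higher). Ddc, which decarboxylates aromatic amino acids, had the smallest p, with 33.9 to 84.3 CPM on the standard diet and 10.3 to 35.0 CPM on the Longevity diet (log2 difference -1.07, adjusted p = 0.109). Aldh8a1, the dehydrogenase that follows Acmsd, was at 272 ± 23.3 and 238 ± 22.9 CPM (adjusted p = 0.516). The other kynurenine aminotransferases did not pass either, with Kyat3 at 197 ± 30.8 and 270 ± 40.2 CPM (log2 difference 0.46, adjusted p = 0.178) and Kyat1 at 70.4 ± 20.2 and 70.9 ± 11.5 CPM. Ido2, a second kind of tryptophan dioxygenase, was at 71.0 ± 22.9 and 48.0 ± 10.0 CPM (adjusted p = 0.274).

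NAD can also be made from nicotinic acid, nicotinamide or nicotinamide riboside. Of 18 tested genes of these routes and of nicotinamide removal (19 rows, since Nnt is listed more than once; the list also holds the transketolase Tkt, which is not of these routes), 0 rose and 1 fell, with a median log2 difference of 0.18. Unadjusted p was under 0.05 for 5 of the 19 rows, in both directions. The gene that fell was Nnmt, the nicotinamide N-methyltransferase, with 27.9 to 202 CPM on the standard diet and 0.314 to 4.51 CPM on the Longevity diet (log2 change -5.91, adjusted p = 0.00160), a call kept in all 22 alternative settings. Nadsyn1, which amidates the product that follows Qprt, was at 16.0 ± 5.28 and 23.4 ± 3.10 CPM (log2 difference 0.60, adjusted p = 0.199). Nmrk1, the riboside kinase, was at 6.92 to 14.7 CPM on the standard diet and 14.8 to 22.4 CPM on the Longevity diet, without overlap but with SD_646 only just below LD_405 (log2 difference 0.64, adjusted p = 0.159). Nampt, of nicotinamide salvage, was at 46.0 ± 12.5 and 65.4 ± 18.4 CPM (adjusted p = 0.353), Naprt, of the nicotinic acid route, at 112 ± 14.2 and 131 ± 38.1 CPM (adjusted p = 0.673), and the mitochondrial NAD carrier Slc25a51 at 50.8 ± 9.11 and 31.4 ± 8.81 CPM (adjusted p = 0.121). Among 20 tested NAD-consuming enzymes 0 rose and 0 fell, with a median of -0.23 and 1 at an unadjusted p under 0.05. That gene was the DNA repair polymerase Parp2, at 6.14 to 11.1 CPM on the standard diet and 4.35 to 5.41 CPM on the Longevity diet (log2 difference -0.85, adjusted p = 0.0741).

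**Figure D5:**
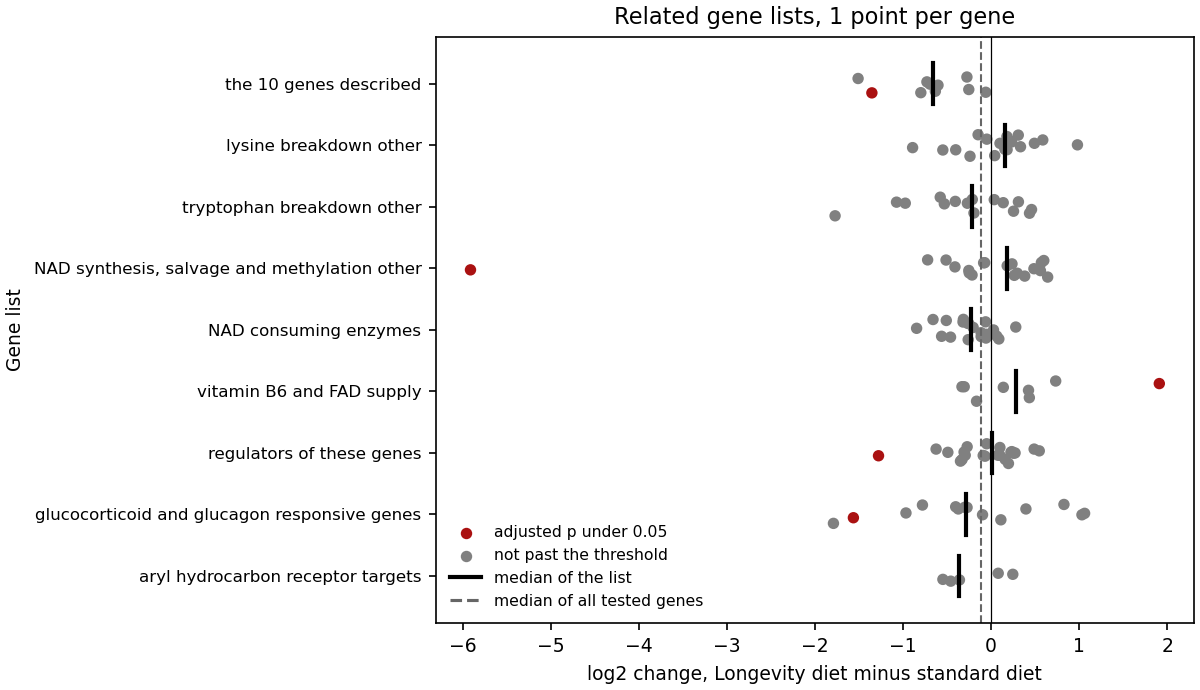
Log2 change of each tested gene (points) in the 10 genes described and in 8 related lists, red where the adjusted p was under 0.05, with a black bar at the list's median and a dashed line at the median of all tested genes (-0.11). The 10 genes have a median of -0.66; the medians of the 8 lists run from -0.36 (aryl hydrocarbon receptor targets) to 0.28 (vitamin B6 and FAD supply), 4 of them below the median of all genes, and no difference between lists was tested.

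Kynureninase and the aminotransferases use vitamin B6, and Kmo and Gcdh use FAD. Of 8 tested genes that supply these cofactors, 1 rose and 0 fell, with a median log2 difference of 0.28. Unadjusted p was under 0.05 for 2 of them, Alpl and Slc52a2, both higher. Alpl, a surface phosphatase that frees vitamin B6 from its phosphate, rose from 8.73 to 16.8 CPM among standard diet mice to 40.3 to 55.6 CPM among Longevity diet mice (log2 change 1.91, 3.76-fold, adjusted p = 0.00160), a call kept in all 22 alternative settings.

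Of 22 tested regulators known from these or other liver genes, 0 rose and 1 fell, with a median of 0.014. Unadjusted p was under 0.05 for 2 of them, Esr1 (lower) and Creb3l3 (higher). Esr1, the estrogen receptor alpha, fell from 25.9 to 42.6 CPM among standard diet mice to 12.9 to 16.9 CPM among Longevity diet mice (log2 change -1.28, adjusted p = 0.00442), also in all 22 alternative settings. The glucocorticoid receptor Nr3c1 was at 57.3 ± 10.0 and 40.4 ± 16.0 CPM (adjusted p = 0.325), Ppara at 45.9 ± 33.5 and 42.3 ± 23.8 CPM (adjusted p = 0.962) and Hnf4a at 235 to 555 and 285 to 577 CPM (adjusted p = 0.618). Of 14 genes that respond to glucocorticoids or glucagon, 0 rose and 1 fell, with a median of -0.29 and log2 differences in both directions. Unadjusted p was under 0.05 for 6 of them, also in both directions. The gene that fell was the metallothionein Mt1, at 472 to 1283 CPM and 143 to 435 CPM (log2 change -1.56, adjusted p = 0.0262). In 7 of 22 alternative settings Mt1 did not pass. Tat, the tyrosine aminotransferase, was at 750 ± 263 and 429 ± 130 CPM (adjusted p = 0.177), while Fkbp5, a glucocorticoid-induced chaperone, stood higher on the Longevity diet at 32.2 ± 11.7 and 64.9 ± 18.5 CPM (adjusted p = 0.0624) and passed without LD_405 (adjusted p = 0.0405). Among 5 tested targets of the aryl hydrocarbon receptor, for which kynurenine is a ligand, 0 passed, and 1 had an unadjusted p under 0.05. Nqo1 had the smallest p, with 9.36 to 22.8 CPM on the standard diet and 7.81 to 12.1 CPM on the Longevity diet (adjusted p = 0.266).

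Markers of where in the lobule hepatocytes lie, and of other cells, were measured beside these genes. Of 8 periportal hepatocyte markers 1 fell (Gls2, the liver glutaminase, log2 change -1.69, adjusted p = 0.00394) and 0 rose, with a median log2 difference of -0.86. Those above 0 were Cyp2f2 (0.26) and Hsd17b13 (0.17), and Pck1 was at -0.10. Their sums were 3727 to 5413 CPM on the standard diet and 2404 to 4462 CPM on the Longevity diet, lowest in LD_405. Pck1, the most abundant by mean (1826 and 1880 CPM by diet), was at 537 CPM in LD_405. Of 8 pericentral markers 0 passed (median -0.29, sums of 3329 to 8781 and 5272 to 7804 CPM). Sinusoidal endothelial markers summed to 277 to 379 CPM on the standard diet and 116 to 253 CPM on the Longevity diet (0 of 10 past the threshold), and stellate cell and fibroblast markers to 324 to 495 and 212 to 300 CPM (1 of 10 fell, Pdgfrb). Blood cell markers were uneven among the standard diet mice: neutrophil and monocyte markers summed to 7.60 to 91.2 CPM there and 3.75 to 13.4 CPM on the Longevity diet (1 of 6 tested fell, S100a8), and B and plasma cell markers to 66.3 to 453 and 25.5 to 101 CPM (0 of 7). T and NK cell markers (0 of 6 tested passed) summed to 5.83 to 19.0 CPM in 4 standard diet mice, more in SD_501, and 1.04 to 19.6 CPM on the Longevity diet. Cholangiocyte markers summed to 27.2 to 59.3 and 27.5 to 47.8 CPM (0 of 4), and the 1 exocrine pancreas marker in the table stood at 13.1 to 25.6 and 9.38 to 25.3 CPM. Median log2 differences were -0.78 for sinusoidal endothelial, -0.81 for stellate cell and fibroblast and -0.53 for Kupffer cell and macrophage markers. They were -2.06 for neutrophil and monocyte, -1.28 for B and plasma cell, -0.50 for T and NK cell and 0.012 for cholangiocyte markers. The median of the 10 genes was -0.66. The part of these markers in the differences of the 10 genes was not tested.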

How the data were processed

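Poly-A selected liver RNA of 10 mice was sequenced. STAR, Partek and the mm39 genome are named in the submitters' processing notes, without role or version; the quantifier, annotation release, strand setting and low-count filter are not given in the sources used here. The values deposited by the authors are CPM, with 0.0001 added to each by the look of the values (every column sums to 1e+06 without it), and that addition was subtracted. Depth was estimated from the step that 1 read makes. Only 84.5% to 88.0% of low values lay within 0.1 of a whole read, so the main test used no count model. The alternative with voom weights used counts rebuilt from the estimated depth. Genes whose mean reached 1 CPM were analysed as log2(CPM + 0.1) with limma 3.58.1 (trend and robust, statmod 1.5.0, R 4.3.3), with diet as the only term, two-sided, Benjamini-Hochberg over 13157 genes, threshold 0.05; this procedure was tested on simulated data. Differences on this scale understate those of low genes. Ratios were compared by exact permutation over mice. P-values set a difference against the variation between these mice, which limma estimates for each gene with help from all tested genes. The labels name no batch, cage or pairing.

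Gene ends are 1 below the deposited stop, an offset seen in 15 of 15 mitochondrial genes compared with GENCODE M21. Promoter windows are RefSeq's on GRCm38.p6, another build than the table's, and were used for sequence only; 1 window is not reported here. The 10 genes, the 8 related lists (138 entries) and the 3 ratios were chosen with earlier results of these data known. Genes named are all 10, and from each list those past the threshold (at most 4 with the smallest p) or, where none passed, the 1 with the smallest p; neighbouring enzymes and regulators named besides these were chosen after their values were seen. The 22 alternatives covered the pseudocount, filter, scaling, weights, model options, a covariate, gene type and leaving out each mouse. Counting limits cover counting error only.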

Additional observations from a re-analysis of the deposited data

Results flagged for a closer look

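Among 42 groups of 5 mice examined (the 10 genes, the genes named from the 8 lists by rule and the 3 ratios, on each diet), 2 held a value far from the rest, where chance flags about 1 group in 20. Ddc was at 84.3 CPM in SD_403, and the next highest standard diet mouse had 45.0 CPM. Nqo1 was at 7.81 CPM in LD_515, and the next lowest Longevity diet mouse had 11.3 CPM. None of the 10 genes had such a value on either diet, and none of the 3 ratios.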

How the results depend on the processing

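Of the 10 genes 1 fell by the settings reported. The number was 2 with quantile normalization (Aass and Kynu), 5 with weights per library (Aass, Afmid, Kynu, Haao and Acmsd) and 0 with the leading digit of the mouse number as a covariate, and it ran from 1 to 3 when each mouse was left out, with 3 (Aass, Kynu and Acmsd) without SD_502; 0 rose in any of these. Over all genes 249 changed, 805 with weights per library and 98 with the covariate, and 97 to 378 when each mouse was left out (97 without SD_403, 147 without SD_501, 108 without SD_500, 98 without LD_406, 112 without LD_515 and 378 without LD_405). Median-of-ratios scaling gave 154 genes higher and 134 lower, and quantile normalization 151 and 148, against 87 and 162. The cause of these shifts was not tested. Weights per library ran from 0.19 in LD_405 to 2.91 in SD_500, while leaving out LD_405 gave 1 of the 10 genes, Aass. The log2 difference of Qprt changed sign with median-of-ratios scaling (0.051) and without SD_403 (0.014), and ran from -0.11 to 0.014 when each mouse was left out. The differences of Acmsd to Qprt (-1.65 to -1.14) and Aass to Gcdh (-1.19 to -0.91) stayed past the threshold and that of Kmo to Aadat (-0.46 to -0.23) did not reach it under 2 other pseudocounts, quantile normalization or leaving out each mouse; the other alternatives, the mouse number covariate among them, were not run on the ratios. No paired analysis was possible because no mouse number occurs on both diets. The lowest value of the 10 genes, 2.25 CPM for Acmsd, is above the 0.121 CPM that 3 reads make in the shallowest library. That comparison concerns detection only. Depth was lower on the Longevity diet, and its part in the differences was not tested.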
